A study of Mus musculus with 12 samples.

Results

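The glucocorticoid receptor gene Nr3c1 and 9 genes known as its targets (Sgk1, Tsc22d3, Fkbp5, Zbtb16, Mt1, Mt2, Hif3a, Plin4 and Angptl4) were followed after noise in the cochlea, where hair cells turn sound into nerve signals. The 10 were chosen by symbol, each matched to 1 Ensembl gene, out of 35496 genes in the count table. The choice was made with earlier results of these data known. All 10 were among the 19497 genes that passed the filter on low counts. The groups were FVB/NCrl mice, an inbred strain, at postnatal day 60, which spent 30 minutes awake at 70 dB SPL (sound pressure level; the ambient control), 94 dB or 105 dB, with 4 RNA-seq libraries each. All groups shared strain, age, tissue and length of exposure, and RNA was taken with TRIzol directly after it. Nothing in the labels ties a library to 1 animal or to several, so each p-value rests on the spread among these libraries, and that spread may be technical.

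Glucocorticoids are adrenal steroid hormones whose secretion rises under stress. Without hormone the receptor sits in the cytoplasm in a complex with heat shock protein 90 and its cochaperones; once bound it moves to the nucleus, binds palindromic DNA elements and raises or lowers transcription of nearby genes within minutes to hours. Several of its targets feed back on the pathway, among them Fkbp5, a cochaperone that lowers the receptor's affinity for hormone, and the receptor is present in cochlear hair cells, spiral ganglion and lateral wall.

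Promoter sequences were read for the members because elements near a transcript start are among the places where the receptor can bind. RefSeq's GRCm38.p6 table held 14 windows for 7 members, each with 250 bases before a transcript start and 50 after it. A full glucocorticoid response element was searched as GNACANNNTGTNC, a palindrome that reads alike on both strands. It was present in 1 of the 6 Sgk1 windows and in the Mt1 window, that is in 2 of 14 windows, and it was present in 0.475% of all 32851 windows of this length. A metal response element, the site of the zinc-sensing factor MTF1, was searched on both strands as TGCACNC or TGCGCNC. It matched 3 times in the Mt1 window and 4 times in the Mt2 window, and 1.97% of all windows held 3 or more matches (25.7% held any). The Sgk1 sequence is shown for its glucocorticoid element, in capitals (chr10:21993640-21993939, plus strand), and the metallothionein sequences to set a neighbouring gene pair side by side (Mt1, chr8:94178839-94179138; Mt2, chr8:94172368-94172667; both plus strand), with both kinds of element in capitals. In Mt1 the first run of capitals is the glucocorticoid element, and all other runs in Mt1 and Mt2 are metal response elements.
Sgk1: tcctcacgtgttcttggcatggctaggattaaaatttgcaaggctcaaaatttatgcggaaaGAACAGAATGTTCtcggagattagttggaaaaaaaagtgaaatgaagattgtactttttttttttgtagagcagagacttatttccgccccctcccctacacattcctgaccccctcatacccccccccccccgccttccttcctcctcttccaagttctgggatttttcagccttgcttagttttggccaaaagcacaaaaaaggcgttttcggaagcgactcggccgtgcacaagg
Mt1: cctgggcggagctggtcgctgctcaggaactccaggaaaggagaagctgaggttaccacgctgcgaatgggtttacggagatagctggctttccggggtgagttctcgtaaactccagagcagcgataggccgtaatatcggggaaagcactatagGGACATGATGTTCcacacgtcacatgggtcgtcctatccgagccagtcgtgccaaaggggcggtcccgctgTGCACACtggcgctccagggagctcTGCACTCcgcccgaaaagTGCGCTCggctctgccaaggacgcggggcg
Mt2: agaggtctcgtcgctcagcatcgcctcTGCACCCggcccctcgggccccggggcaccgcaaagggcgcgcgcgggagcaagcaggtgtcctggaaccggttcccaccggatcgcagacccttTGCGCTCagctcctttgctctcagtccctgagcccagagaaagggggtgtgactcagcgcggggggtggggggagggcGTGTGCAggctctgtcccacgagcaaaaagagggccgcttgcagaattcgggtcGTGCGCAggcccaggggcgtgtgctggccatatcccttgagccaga

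The Sgk1 element, GAACAGAATGTTC, begins 188 bases before the transcript start of its window, which is 1 of 6 Sgk1 windows. The Mt1 element, GGACATGATGTTC, begins 94 bases before the transcript start of its window. These matches describe the letters of the windows; no binding was measured, and elements farther from a start were not searched.

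**Figure D1:**
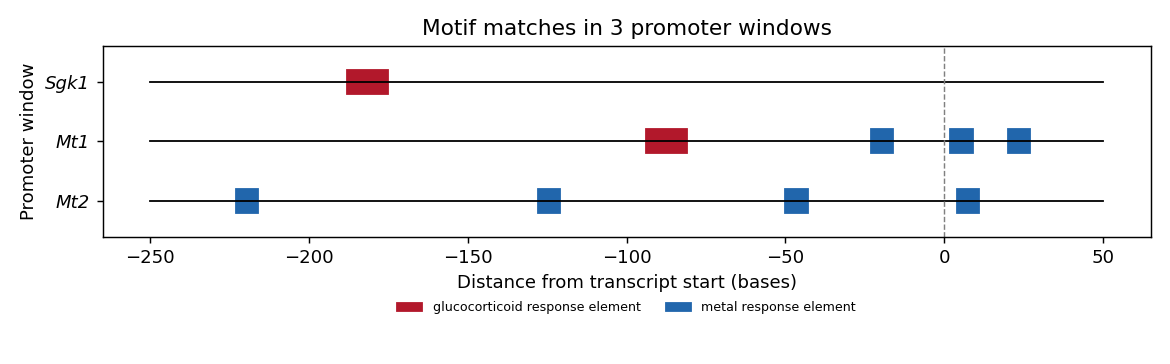
Matches to the glucocorticoid and metal response elements in 3 promoter windows, by distance from the transcript start in bases (dashed line at 0). The glucocorticoid element begins 188 bases before the transcript start of the Sgk1 window shown, 1 of 6 for that gene. In Mt1 it begins 94 bases before the start, and no full match to it lies in the Mt2 window.

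Library depth ran from 31141706 to 42317781 counts, so that 3 counts, the floor used here, equal 0.0703 to 0.0966 CPM (read counts scaled to library size with TMM factors). All 13 marker genes of cochlear cell types had counts in every library. At 94 dB against 70 dB 1 of them was higher and 3 lower at an edgeR adjusted p under 0.05 (30.8%, beside 26.1% of all genes). At 105 dB against 94 dB 3 were higher and 1 lower (30.8%, beside 17.3%). Between 105 dB and 70 dB 0 passed by edgeR (0 at an unadjusted p under 0.05; 0 by DESeq2). Mitochondrially encoded genes took between 5.08% and 5.68% of counts in the 70 dB libraries, between 2.68% and 3.59% in the 94 dB libraries and between 4.43% and 5.35% in the 105 dB libraries, and 94 dB replicates 3 and 4 stood apart at 2.68% and 2.73%. In bulk tissue, fewer cells of a type and less RNA per cell cannot be told apart.

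Among the members, 2 genes rose at both noise levels and by nearly equal amounts, Tsc22d3 and Sgk1. Plin4 and Mt2 rose and Zbtb16 fell at 94 dB against 70 dB, and Mt1 rose at 105 dB against both other groups. The receptor gene itself did not pass in any comparison. In counts, 4 members were higher and 1 lower at 94 dB against 70 dB, where 26.1% of all genes tested were called (13.9% higher, 12.2% lower). Between 105 dB and 70 dB 3 were higher and 0 lower, where 1.62% of all genes were called (1.11% higher, 0.508% lower; 217 and 99 genes, or 189 and 135 with upper-quartile factors). That share over all genes was 0.972% with replicate 1 of the 70 dB group left out and 0.752% with its replicate 4 left out, and with replicates 2 and 3 of the 105 dB group left out in turn it was 0.634% and 0.942%. In each of these fits 3 members were called, with Zbtb16 in place of Mt1 when 70 dB replicate 4 was left out. Between 105 dB and 94 dB 1 was higher, where 17.3% were called (8.06% higher, 9.23% lower). Without 94 dB replicates 3 and 4, 3 members were called at 94 dB against 70 dB, where 7.97% of all genes were, and 0 at 105 dB against 94 dB, where 1.07% were, and single libraries moved the first count to between 3 and 6. The median log2 fold change over the 10 members against 70 dB was 0.47 at 94 dB and 0.70 at 105 dB. At 105 dB against 94 dB it was 0.01. Over all genes these medians were -0.02, -0.004 and 0.002. Because the members were chosen with earlier results of these data known, these counts and medians are no independent test of a response. A call here is a Benjamini-Hochberg adjusted p under 0.05 over all 19497 genes in edgeR's quasi-likelihood test.

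**Figure D2:**
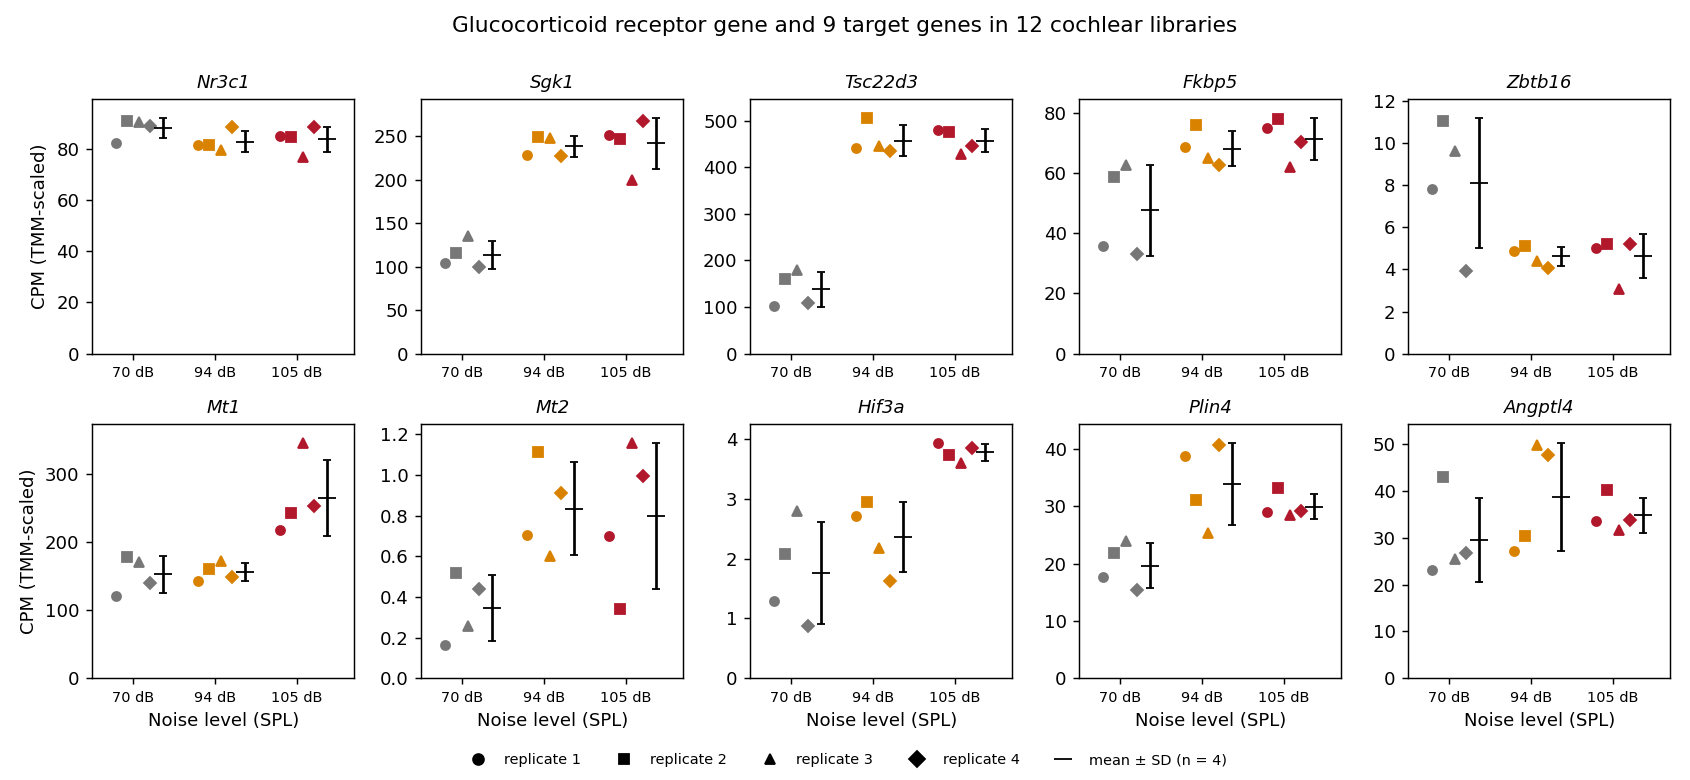
CPM of the 10 genes in each of the 12 libraries, by noise level; symbols mark replicates and black bars the mean ± SD (n = 4). Tsc22d3 and Sgk1 lie higher in all 8 noise libraries than in any 70 dB library, Mt1 is higher in all 105 dB libraries than in any other, and Nr3c1 stays between 76.7 and 90.7 CPM.

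Nr3c1 (ENSMUSG00000024431; mm10 chromosome 18, 39410545 to 39519421, minus strand) encodes the glucocorticoid receptor, a nuclear receptor. It read 82.3, 90.7, 90.5 and 88.7 CPM at 70 dB, 81.4, 81.3, 79.3 and 88.7 CPM at 94 dB, and 85.1, 84.6, 76.7 and 88.4 CPM at 105 dB. The groups overlapped, and the spread within each was small, with an SD of 4.46% of the mean at 70 dB. Its log2 fold change was -0.09 at 94 dB against 70 dB (95% interval -0.23 to 0.04; edgeR adjusted p = 0.317) and -0.07 at 105 dB against 70 dB (-0.21 to 0.06; edgeR adjusted p = 0.561). The sign at 94 dB turned, to 0.13, when each library's trend on GC content and transcript length was removed.

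Tsc22d3 (ENSMUSG00000031431; mm10 chromosome X, 140539528 to 140600659, minus strand) encodes GILZ, a leucine zipper protein that mediates anti-inflammatory effects of glucocorticoids. It read 103, 161, 179 and 109.7 CPM at 70 dB, 442, 506, 447 and 435 CPM at 94 dB, and 480.1, 475, 429.7 and 445 CPM at 105 dB. Every noise library lay far above the highest 70 dB library, and the 94 and 105 dB libraries overlapped. The fold was 3.31 at 94 dB against 70 dB (log2 1.73, SE 0.15; edgeR adjusted p = 1.55e-05) and also 3.31 at 105 dB against 70 dB (log2 1.73, SE 0.15; edgeR adjusted p = 2.28e-05). Between 105 dB and 94 dB the log2 fold change was 0.00075, with a 95% interval of -0.31 to 0.31 and an edgeR adjusted p of 0.998.

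Sgk1 (ENSMUSG00000019970; mm10 chromosome 10, 21882184 to 21999903, plus strand) encodes a kinase that raises the activity of epithelial sodium and potassium transport. It read 104, 116, 135 and 99.5 CPM at 70 dB, 228, 249, 248 and 227 CPM at 94 dB, and 252, 247, 199.9 and 268 CPM at 105 dB. Here too the noise libraries lay above all 70 dB libraries, the lowest being 105 dB replicate 3. The fold was 2.09 at 94 dB against 70 dB (log2 1.07, SE 0.10; edgeR adjusted p = 5.38e-06) and 2.13 at 105 dB against 70 dB (log2 1.09, SE 0.10; edgeR adjusted p = 6.37e-06). The noise levels differed by 0.02 on the log2 scale, with a 95% interval of -0.19 to 0.23 (105 dB against 94 dB; edgeR adjusted p = 0.910). Sgk1 and Tsc22d3 kept both calls in each of the 22 alternative analyses.

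Fkbp5 (ENSMUSG00000024222; mm10 chromosome 17, 28399094 to 28517527, minus strand), the cochaperone of the receptor complex, did not pass. It read 35.9, 58.6, 62.7 and 33.2 CPM at 70 dB, 68.4, 76.0, 65.0 and 62.6 CPM at 94 dB, and 75.0, 77.8, 61.8 and 70.3 CPM at 105 dB. The 70 dB libraries split into a high pair, replicates 2 and 3, and a low pair, and replicate 3 lay above the lowest library of each noise group. The log2 fold change was 0.51 at 94 dB against 70 dB (95% interval 0.10 to 0.93; edgeR adjusted p = 0.0649) and 0.58 at 105 dB against 70 dB (0.17 to 0.99; edgeR adjusted p = 0.147). The adjusted p at 94 dB was 0.0384 when 70 dB replicate 2 was left out, 0.0200 when replicate 3 was, and 0.00978 by DESeq2; over all alternatives it ran from 0.00978 to 0.184. For 105 dB DESeq2 gave 0.0163, and the alternatives ran from 0.0163 to 0.322.

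Zbtb16 (ENSMUSG00000066687; mm10 chromosome 9, 48654297 to 48836222, minus strand) encodes the zinc finger repressor PLZF, which glucocorticoids induce in many cell types. It read 7.82, 11.04, 9.64 and 3.92 CPM at 70 dB, 4.86, 5.13, 4.42 and 4.07 CPM at 94 dB, and 5.04, 5.23, 3.06 and 5.20 CPM at 105 dB. The groups overlapped because 70 dB replicate 4 lay below every 94 dB library, while the other 70 dB libraries lay above all noise libraries. It fell by 0.81 on the log2 scale at 94 dB against 70 dB (SE 0.26; edgeR adjusted p = 0.0323) and had a log2 fold change of -0.81 at 105 dB against 70 dB (SE 0.26; edgeR adjusted p = 0.132). The 94 dB call ended when 70 dB replicate 1 (0.0544), 2 (0.0868) or 3 (0.0869) or 94 dB replicate 1 (0.0559), 2 (0.0510), 3 (0.0825) or 4 (0.0911) was left out; over all alternatives the adjusted p ran from 0.00137 to 0.250. At 105 dB against 70 dB the edgeR adjusted p was 0.00594 when 70 dB replicate 4 was left out. DESeq2 with all libraries gave an adjusted p of 0.0247 there, and the alternatives ran from 0.00594 to 0.282.

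Metallothioneins are small cysteine-rich proteins that bind zinc and copper. Mt1 (ENSMUSG00000031765; mm10 chromosome 8, 94179082 to 94180327, plus strand) separated the noise levels. It read 120.4, 179, 171 and 140.4 CPM at 70 dB, 142, 159.9, 173 and 149 CPM at 94 dB, and 217, 243, 346 and 254 CPM at 105 dB. Every 105 dB library lay above all others, and the 94 and 70 dB libraries overlapped. Against 94 dB the 105 dB fold was 1.70 (log2 0.77, SE 0.15; edgeR adjusted p = 0.00564), and against 70 dB it was 1.73 (log2 0.79, SE 0.15; edgeR adjusted p = 0.0170). At 94 dB against 70 dB the log2 fold change was 0.03 (95% interval -0.29 to 0.35; edgeR adjusted p = 0.904). The call against 70 dB ended when 70 dB replicate 4 was left out (0.0798) and in a fit of the 8 libraries compared (0.0611); its adjusted p ran from 3.82e-06 to 0.0798 over the alternatives. The call against 94 dB ended without 94 dB replicates 3 and 4 together (0.0847, the upper end of a range from 5.43e-06), while the log2 fold change there was 0.81.

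Mt2 (ENSMUSG00000031762; mm10 chromosome 8, 94172664 to 94173568, plus strand) was counted at a far lower level, with 7 to 42 reads per library where Mt1 had 4476 to 10750. In the annotation 432 of its 588 exon bases are shared with Gm45774, an antisense gene that is also in the count table (3 to 53 reads). Whether counting used strand is not given in the sources used here. Without it, reads on the 432 bases cannot be told apart between Mt2 and Gm45774, and the Mt2 level is uncertain. Its values were 0.164, 0.519, 0.257 and 0.439 CPM at 70 dB, 0.707, 1.12, 0.599 and 0.911 CPM at 94 dB, and 0.698, 0.342, 1.16 and 0.996 CPM at 105 dB. All 94 dB libraries lay above all 70 dB libraries, while the 105 dB group overlapped the 94 dB group and, through its replicate 2, the 70 dB group. The log2 fold change was 1.28 at 94 dB against 70 dB (SE 0.41; edgeR adjusted p = 0.0292) and 1.21 at 105 dB against 70 dB (SE 0.41; edgeR adjusted p = 0.141). The 94 dB call ended when 70 dB replicate 1 (0.0816) or 3 (0.0754) or 94 dB replicate 2 (0.0818) or 4 (0.0689) was left out, and in a fit free of GC and length trends (0.127); over the alternatives its adjusted p ran from 0.0144 to 0.143. As a share of Mt1 plus Mt2 reads, Mt2 took 0.536 ± 0.15% at 94 dB and 0.222 ± 0.0917% at 70 dB (SD, n = 4; two-sided exact permutation p = 0.0286, the smallest that 70 assignments allow; adjusted p = 0.0857 over 3 comparisons). At 105 dB the share was 0.296 ± 0.108% (SD, n = 4), with an exact permutation p of 0.229 against 70 dB and 0.0571 against 94 dB (adjusted p = 0.229 and 0.0857).

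Hif3a (ENSMUSG00000004328; mm10 chromosome 7, 17031507 to 17062427, minus strand) encodes a hypoxia-inducible factor subunit that can inhibit the other subunits of the family. It read 1.29, 2.08, 2.803 and 0.878 CPM at 70 dB, 2.71, 2.95, 2.18 and 1.63 CPM at 94 dB, and 3.94, 3.73, 3.61 and 3.85 CPM at 105 dB. All 105 dB libraries lay above every other library and close together, with an SD of 3.84% of the mean. The log2 fold change at 105 dB against 70 dB was 1.10 (SE 0.27; edgeR adjusted p = 0.0539), at 94 dB against 70 dB it was 0.42 (SE 0.28; edgeR adjusted p = 0.281), and at 105 dB against 94 dB it was 0.68 (SE 0.27; edgeR adjusted p = 0.0954). The adjusted p at 105 dB against 70 dB was under the threshold when 70 dB replicate 3 was left out (0.0109), in a fit free of GC and length trends (0.0439), when no low-count filter was applied (0.0165) and by DESeq2 (0.00352); the alternatives ran from 0.00352 to 0.147. Against 94 dB it was 0.0451 when 70 dB replicate 4 was left out and 0.0248 in a fit of the 8 libraries compared, and there the alternatives ran from 0.0248 to 0.555.

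Plin4 (ENSMUSG00000002831; mm10 chromosome 17, 56100591 to 56109803, minus strand) encodes perilipin 4, a lipid droplet coat protein. It read 17.6, 21.8, 23.9 and 15.4 CPM at 70 dB, 38.8, 31.001, 25.3 and 40.7 CPM at 94 dB, and 29.0, 33.2, 28.4 and 29.1 CPM at 105 dB. Both noise groups lay above all 70 dB libraries. The fold was 1.73 at 94 dB against 70 dB (log2 0.79, SE 0.15; edgeR adjusted p = 0.00272), a call kept in all 22 alternatives. It was 1.52 at 105 dB against 70 dB (log2 0.61, SE 0.15; edgeR adjusted p = 0.0673), where the adjusted p was 0.0388 when 70 dB replicate 3 was left out, 0.0265 when 94 dB replicate 3 was, and 0.00415 by DESeq2; the alternatives ran from 0.00415 to 0.199. Its exons share 17 bases with Hdgfl2 on the opposite strand. Adipocytes and skeletal muscle also express Plin4. The 8 adipocyte markers summed to 131 to 197 CPM at 70 dB, 142 to 293 CPM at 94 dB and 141 to 229 CPM at 105 dB, and the 7 muscle markers to 4505 to 7213, 3705 to 7705 and 5836 to 7754 CPM in the same groups. No marker of either list was at 0. None was called by edgeR in any comparison, though 2 adipocyte markers had an unadjusted p under 0.05 at 94 dB against 70 dB and DESeq2 called 1 there; for muscle both counts were 0. Their part in the Plin4 difference was not tested.

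Angptl4 (ENSMUSG00000002289; mm10 chromosome 17, 33773750 to 33781830, minus strand) encodes a secreted inhibitor of lipoprotein lipase that fasting, PPAR factors and hypoxia also induce. It read 23.1, 42.9, 25.5 and 26.8 CPM at 70 dB, 27.2, 30.5, 49.8 and 47.6 CPM at 94 dB, and 33.5, 40.3, 31.7 and 33.8 CPM at 105 dB. The groups overlapped, and the high 94 dB values were those of replicates 3 and 4, the libraries with the low mitochondrial shares. The log2 fold change was 0.39 at 94 dB against 70 dB (95% interval -0.13 to 0.91; edgeR adjusted p = 0.257) and 0.23 at 105 dB against 70 dB (-0.29 to 0.76; edgeR adjusted p = 0.629). With 94 dB replicates 3 and 4 left out the 94 dB value was -0.03, and with 70 dB replicate 2 left out its adjusted p was 0.0420, the lowest of alternatives that ran to 0.950.

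**Figure D3:**
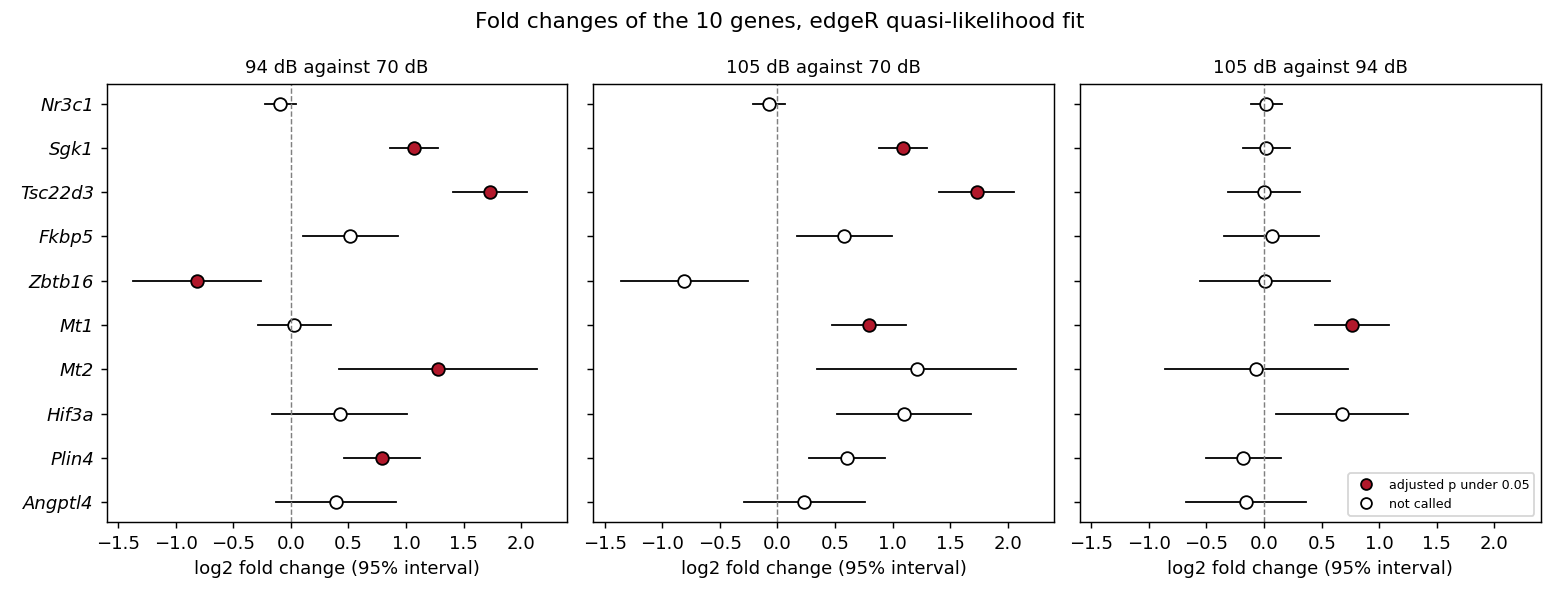
Log2 fold changes of the 10 genes with 95% intervals in 3 comparisons; filled points have an adjusted p under 0.05 by edgeR's quasi-likelihood test. Tsc22d3 and Sgk1 sit at 1.73 and near 1.1 in both comparisons with 70 dB and near 0 at 105 dB against 94 dB, where Mt1, at 0.77, is the filled point.

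Non-overlap of groups was also counted, with no model. At 94 dB against 70 dB 4 members (Sgk1, Tsc22d3, Mt2 and Plin4) had all noise libraries above all ambient libraries, where 25.4% of all genes did not overlap in either direction. Between 105 dB and 70 dB there were 5 (Sgk1, Tsc22d3, Mt1, Hif3a and Plin4), against 10.8% of all genes. At 105 dB against 94 dB there were 2 (Mt1 and Hif3a), against 21.3%. The Mt2 gap at 94 dB was narrow. Its lowest 94 dB value was 0.599 CPM, from 19 reads, and its highest 70 dB value 0.519 CPM, from 22 reads.

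Per kilobase of annotated exon, the order of levels among the members was led by Mt1 in every group, with 123 ± 21.8 CPM per kb in the 70 dB, 125 ± 10.7 in the 94 dB and 213 ± 45.1 in the 105 dB libraries (SD, n = 4). Tsc22d3 followed at 31.8 ± 8.61, 105.4 ± 7.54 and 105.4 ± 5.55 CPM per kb in the same groups, and its range overlapped that of Sgk1 at 70 dB (23.2 ± 3.26) and that of Mt1 at 94 dB. Sgk1 came next in each group. Nr3c1 and Angptl4 followed with overlapping ranges in each group, Nr3c1 at 10.8 to 11.5 CPM per kb on average, then Fkbp5 (5.03 to 7.52) and Plin4 (3.40 to 5.87). Zbtb16, Mt2 and Hif3a had the lowest group means, 0.262 to 1.53 CPM per kb. The Mt2 level was divided by all 588 exon bases, of which 432 are shared with Gm45774, so its place in this order is uncertain.

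**Figure D4:**
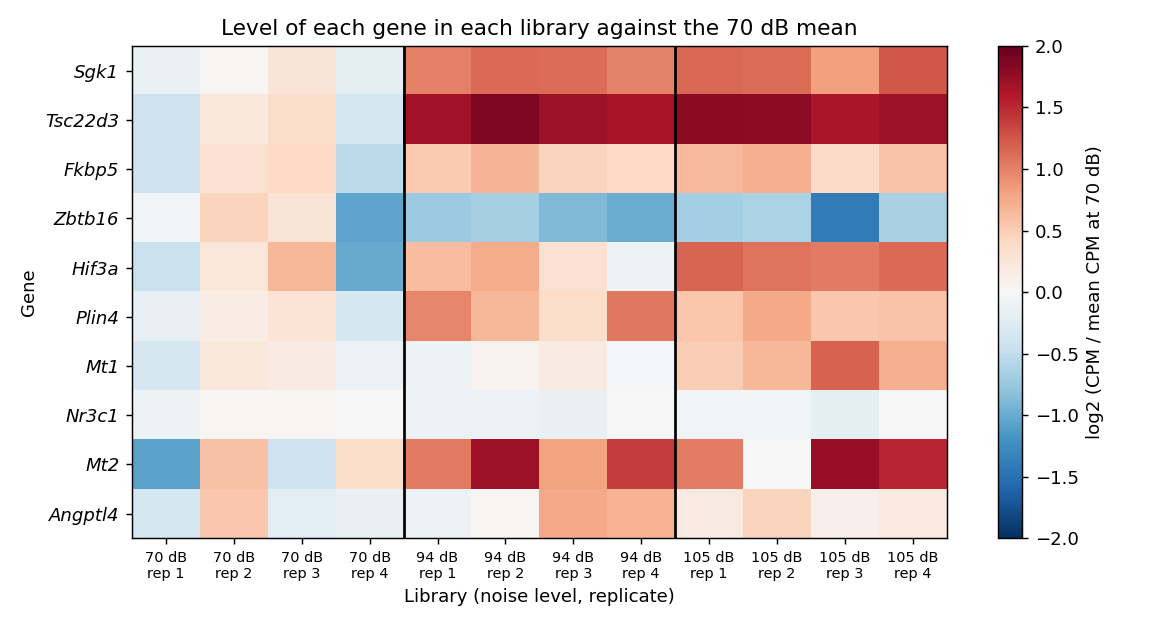
Level of each gene in each library as log2 of CPM over the mean CPM at 70 dB; columns are libraries, and vertical lines part the groups. Tsc22d3 and Sgk1 are high in all 8 noise libraries, Zbtb16 is low in all 8 and in 70 dB replicate 4, and Mt1 is high in the 105 dB libraries.

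Over the 12 libraries the genes whose log2 CPM followed a member most closely, by Pearson's r, differed between members; these values describe likeness over libraries that share groups and depth. Sgk1 was most like Errfi1 (r = 0.994), Dusp1 (0.991) and Sik1 (0.988), all rapidly induced genes. Tsc22d3 was most like Ccn2 (0.991), Arrdc2 (0.991) and Sik1 (0.989). Fkbp5 was most like Stk17b (0.976), Yy1 (0.966) and the clock gene Per2 (0.966). Plin4 was most like Gpat4 (0.945), Abra (0.931) and Vgll2 (0.920), of which Abra and Vgll2 are known from skeletal muscle. Hif3a was most like the splicing factor gene Tra2b (0.989), Crem (0.968) and Mbd1 (0.962), and Mt1 like Pnrc1 (0.953), Emsy (0.935) and Srp19 (0.928). Values were lower for Zbtb16 (Nktr, 0.900), Angptl4 (Chic2, 0.902) and Mt2 (Hvcn1, 0.895), and Nr3c1 was like Lipa (0.910) and Ranbp2 (0.905).

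A wider list held 36 other glucocorticoid targets, of which 35 were tested. At 94 dB against 70 dB 18 rose and 0 fell, where 13.9% of all genes were called higher, with a median log2 fold change of 0.31 over the list and -0.02 over all genes. Between 105 dB and 70 dB 14 rose and 0 fell, with medians of 0.40 and -0.004, where 1.11% of all genes were called higher. All 14 were among the 18. Among the genes with the smallest p were the mTOR inhibitor Ddit4, the clock gene Per1 and the phosphatase gene Dusp1, with log2 fold changes of 3.45, 2.15 and 1.70 at 94 dB and 2.66, 1.90 and 1.82 at 105 dB against 70 dB. Nfkbia, whose product holds NF-kB in the cytoplasm, averaged 57.8 ± 4.96 CPM in the 70 dB group, 125 ± 10.5 CPM in the 94 dB group and 129.6 ± 2.94 CPM in the 105 dB group (SD, n = 4). Arl4d, a small GTPase gene, averaged 8.15 ± 0.588 CPM in the 70 dB group, 22.4 ± 2.74 CPM in the 94 dB group and 16.1 ± 1.64 CPM in the 105 dB group (SD, n = 4). Many of these genes, such as Dusp1, Per1 and Zfp36, are also immediate early genes that other signals induce, and the list was written with earlier results of these libraries known. Between 105 dB and 94 dB 5 were lower (Ddit4 at -0.79, Cebpd at -0.86, Cebpb at -0.54, Arl4d at -0.48 and Plekhf1 at -0.27) and Bcl6 was higher at 0.24, where 17.3% of all genes were called. Without 94 dB replicates 3 and 4 none of these 6 calls stood, and the number called ran from 2 to 7 when single libraries were left out (2 without 70 dB replicate 2, 94 dB replicate 3 or 4, or 105 dB replicate 2 or 4, and 3 without 70 dB replicate 1, 94 dB replicate 2, or 105 dB replicate 1 or 3). A full glucocorticoid response element was present in 4 of 39 promoter windows of this list, in Fam107a, Map3k6 and Txnip. Of these 3, named for the element, Map3k6 rose by 0.69 at 94 dB and 0.72 at 105 dB against 70 dB, Txnip rose by 0.19 at 94 dB and had 0.23 at 105 dB (edgeR adjusted p = 0.0876), and Fam107a had -0.12 at 94 dB and 0.04 at 105 dB.

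**Figure D5:**
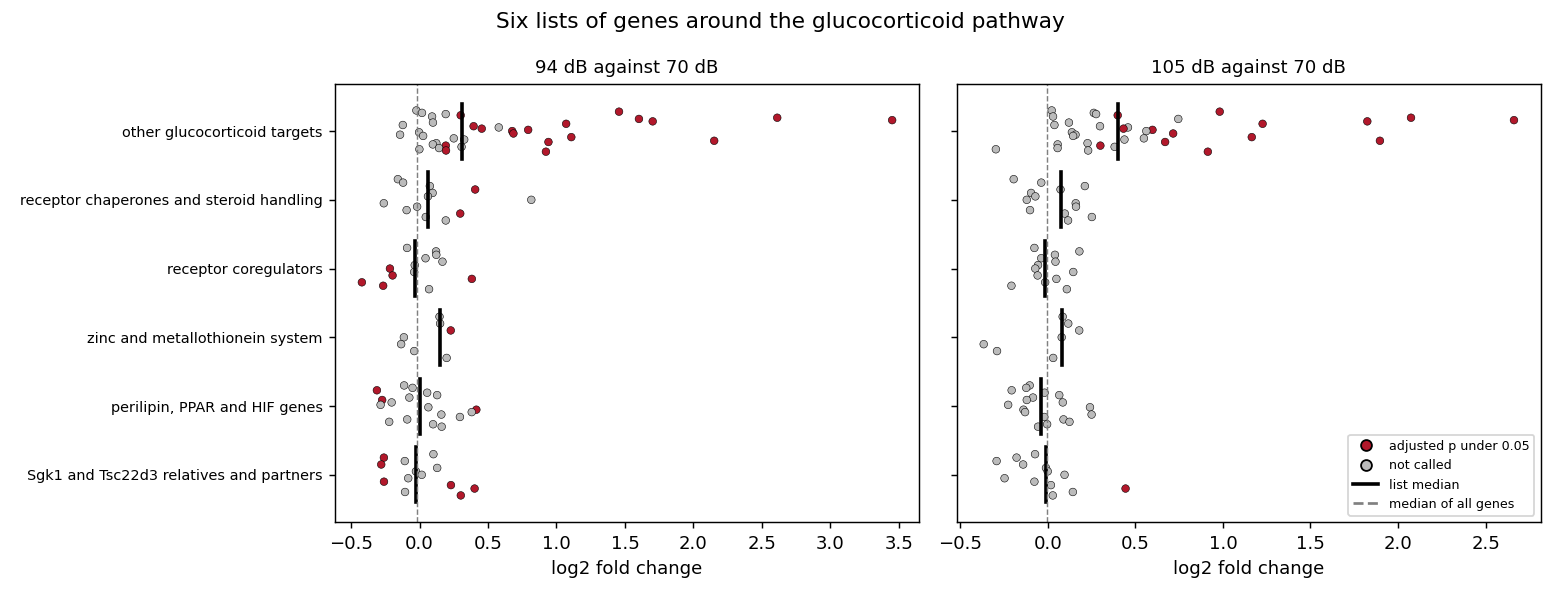
Log2 fold changes of the genes of 6 lists around the pathway at 94 dB and 105 dB against 70 dB; filled red points have an adjusted p under 0.05, thick bars are list medians and the dashed line the median of all genes. The other glucocorticoid targets have medians of 0.31 and 0.40, and the other lists lie between -0.04 and 0.15.

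The genes that handle the hormone and its receptor were read as a list of their own. Of 13 tested chaperones, cochaperones and steroid-handling genes, 2 rose at 94 dB against 70 dB (15.4%, near the 13.9% of all genes called higher; median 0.06) and 0 passed at 105 dB against 70 dB by edgeR (3 at an unadjusted p under 0.05; 0 by DESeq2). Fkbp4, the cochaperone that aids transport of the bound receptor, averaged 258 ± 28.4 CPM in the 70 dB group, 342 ± 17.6 CPM in the 94 dB group and 271 ± 15.2 CPM in the 105 dB group (SD, n = 4), and the phosphatase gene Ppp5c had a log2 fold change of 0.30 at 94 dB. Hsd11b1, which regenerates active hormone, had 0.06 and -0.07 at 94 and 105 dB against 70 dB, and the mineralocorticoid receptor gene Nr3c2 had -0.09 and -0.10; both were picked after their values were seen, and neither passed. Of 13 coregulator genes 4 fell at 94 dB, where 12.2% of all genes were called lower, with the corepressor gene Nrip1 at -0.42, the coactivator genes Ncoa2 at -0.22 and Ppargc1a at -0.27, and the corepressor gene Ncor1, picked after its value was seen, at -0.20. By edgeR 0 passed at 105 dB against 70 dB (2 at an unadjusted p under 0.05; 0 by DESeq2).

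Relatives of single members were read in 3 further lists, beside the 26.1% of all genes called at 94 dB and 1.62% at 105 dB against 70 dB. In the zinc and metallothionein list 1 of 7 tested genes passed at 94 dB (14.3%), the zinc exporter gene Slc30a1, which rose by 0.23 at 94 dB against 70 dB (34.2 ± 2.01 CPM at 94 dB against 29.2 ± 1.05 CPM at 70 dB; SD, n = 4) and had 0.18 at 105 dB against 70 dB, where 0 of the 7 passed by edgeR (2 at an unadjusted p under 0.05; 0 by DESeq2). Of 18 perilipin, PPAR and HIF genes 3 passed at 94 dB (16.7%). Plin3 rose by 0.42 at 94 dB against 70 dB, and Cpt1a, which brings fatty acids to mitochondrial oxidation, and the hypoxia factor gene Hif1a fell, with log2 fold changes of -0.31 and -0.27. By edgeR 0 of the 18 passed at 105 dB against 70 dB (3 at an unadjusted p under 0.05; 1 by DESeq2). Of 13 tested relatives and partners of Sgk1 and Tsc22d3, 3 rose and 3 fell at 94 dB (46.2% called). Tsc22d1, a relative of Tsc22d3, rose in both comparisons, with 635 ± 32.0 CPM in the 70 dB group, 840 ± 48.9 CPM in the 94 dB group and 864 ± 21.3 CPM in the 105 dB group (SD, n = 4), and was the 1 gene of this list called at 105 dB. Tsc22d4 rose by 0.30 at 94 dB, while Nedd4l, a ubiquitin ligase that Sgk1 acts on, and the sodium pump subunit gene Atp1b1 fell, with log2 fold changes of -0.28 and -0.26. The other genes called at 94 dB, picked after their values were seen, were Sgk3, a relative of Sgk1, at -0.26 and the scaffold gene Slc9a3r2 at 0.23.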

How the data were processed

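Read counts per gene came from 12 mouse cochlea libraries, 4 each at 70, 94 and 105 dB. The deposited values are whole-number counts, not normalised; per the submitters' processing notes the authors used CASAVA, STAR and featureCounts 1.5.0-p3 with build mm10. The annotation and strand setting were not given in the sources used here. Columns were matched to samples by title. Symbols, positions and exon lengths were taken from GENCODE M21 (GRCm38, the same assembly as mm10), which named 35474 of 35496 genes, and promoters from RefSeq GRCm38.p6.

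Counts were tested with edgeR 4.0.16 in R 4.3.3: filterByExpr (minimum count 10; 19497 genes and 99.9% of counts kept), TMM factors, a mean per group over all 12 libraries (9 residual degrees of freedom), robust glmQLFit and glmQLFTest, and Benjamini-Hochberg adjustment over all genes. Standard errors and 95% intervals derive from the F statistic. The script was tested on simulated data. The Mt2 share was tested by exact permutation (scipy 1.17.1). Alternatives were DESeq2 1.42.0, other size factors and filters, a fit of 8 libraries, a replicate block, removal of each library's smooth GC-content and exon-length trend (mgcv 1.9.3; 14943 genes), and libraries left out.

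No library was a duplicate: pairs within a group had a chi-square of 12.1 to 51.7 per degree of freedom, and their log2 CPM correlated at 0.991 to 0.996 (Pearson). Named genes were the members, up to 4 called genes per list and comparison with 70 dB by smallest p, and the 3 genes most like each member (average log2 CPM of at least 1); the few others named are said to be picked after their values were seen or follow a stated count. Results for a few genes that this rule names are not reported here. Members and lists were chosen with earlier results of these data known. Intervals and floors cover counting and replicate error only.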

Additional observations from a re-analysis of the deposited data

Results flagged for a closer look

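Mt1 differed between the noise levels. Its log2 fold change at 105 dB against 94 dB was 0.766 (edgeR adjusted p = 0.00564), with all 4 libraries at 105 dB above all 4 at 94 dB, while its fold changes against 70 dB were 0.03 at 94 dB and 0.79 at 105 dB. Of 33 groups of 4 libraries checked, 3 held a library whose gap to the nearest other, as a share of the group's range, passed Dixon's 95% critical value, which chance does in about 1 of 20 groups. These were Tsc22d3 in 94 dB replicate 2, at 506 CPM, Zbtb16 in 105 dB replicate 3, at 3.06 CPM, and Plin4 in 105 dB replicate 2, at 33.2 CPM. Zbtb16 without 105 dB replicate 3 was not called at 105 dB against 70 dB, and Tsc22d3 kept its calls without 94 dB replicate 2.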

How the results depend on the processing

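Sgk1 and Tsc22d3 at both noise levels and Plin4 at 94 dB kept direction and call in all 22 alternatives; of 655 member fold changes recomputed, 574 kept sign and call, 20 lost a call, 21 gained one and 40 changed sign. Leaving out 1 library at a time gave 3 to 6 members called at 94 dB against 70 dB (3 without 70 dB replicate 1, 94 dB replicate 2 or 94 dB replicate 4), 3 to 5 at 105 dB against 70 dB (5 without 70 dB replicate 3) and 1 to 2 at 105 dB against 94 dB (2 without 70 dB replicate 4), and 16 to 18, 13 to 17 and 2 to 7 other glucocorticoid targets; the Mt2 share differed by 0.261 to 0.377, 0.0432 to 0.127 and -0.302 to -0.187 percentage points. Without 94 dB replicates 3 and 4 together 3 members were called at 94 dB against 70 dB (Plin4, Sgk1 and Tsc22d3), and 0 members and 0 other targets at 105 dB against 94 dB, where 7.97% and 1.07% of all genes were called, beside 26.1% and 17.3% with all libraries. DESeq2 called 7 members at 105 dB against 70 dB, beside 5.54% of the 16072 genes to which it gave an adjusted p. At 105 dB against 94 dB it called 2 members, beside 25.2% of 16448 such genes. The fit of 8 libraries called 2 at 105 dB against 94 dB. With the GC and length trend removed 3 other targets were called at 105 dB against 94 dB (0 higher, 3 lower), and 3 with the replicate block added (2 higher, 1 lower). Same-numbered libraries of different groups had deviations correlated from -0.149 to 0.182, and differently numbered ones from -0.187 to 0.147. The labels do not say whether the numbers pair samples, and these overlapping ranges cannot decide it. With the replicate block alone Hif3a was called at 105 dB against 70 dB (edgeR adjusted p = 0.0258, in a range of 0.00352 to 0.147). No other member's call changed with it. Without 1 library the share of all genes called at 105 dB against 94 dB was as low as 8.31% (94 dB replicate 3), 9.45% (94 dB replicate 4), 10.4% (105 dB replicate 2) and 10.2% (105 dB replicate 4). All genes called at 105 dB against 70 dB were 479 with the block and 316 without it.

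Signs that turned belonged to fold changes that were not called. With the GC and length trend removed, alone and with the replicate block, Nr3c1 had 0.13 and 0.13 at 94 dB against 70 dB and -0.15 and -0.15 at 105 dB against 94 dB; Mt1 had -0.20 and -0.19 at 94 dB against 70 dB; and at 105 dB against 94 dB Sgk1 had -0.031 and -0.026, Tsc22d3 -0.052 and -0.046, and Mt2 0.13 and 0.15. Without 94 dB replicates 3 and 4 together the values at 105 dB against 94 dB were -0.053 for Tsc22d3, -0.021 for Fkbp5, -0.11 for Zbtb16 and 0.27 for Angptl4, and at 94 dB against 70 dB -0.012 for Mt1 and -0.033 for Angptl4. With DESeq2's size factors and with DESeq2 Tsc22d3 had -0.0026 and -0.0026 at 105 dB against 94 dB, and with upper-quartile factors Mt1 had -0.0027 at 94 dB against 70 dB. With 1 library left out, Mt1 ran from -0.065 to 0.11 at 94 dB against 70 dB, and at 105 dB against 94 dB Mt2 ran from -0.29 to 0.18, Nr3c1 from -0.0075 to 0.056, Sgk1 from -0.030 to 0.10, Tsc22d3 from -0.023 to 0.054 and Zbtb16 from -0.054 to 0.16. The causes were not tested. At 1 CPM in 4 libraries Mt2 was not tested. Depth limits Mt2 most, at 7 to 42 reads per library.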

Other observations

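The ambient libraries differed among themselves in these genes. In 8 of the 10 members (all but Mt2 and Angptl4) the highest 70 dB values were those of replicates 2 and 3, and the same held for 24 of 35 other glucocorticoid targets; over all genes tested this pair was highest in 19.4%. The largest share of members that a pair of libraries held in the noise groups was 3 of 10, with 9 of 35 and 8 of 35 other targets for the leading pairs at 94 dB and 105 dB. Tsc22d3 had an SD of 27.1% of its mean at 70 dB, 7.15% at 94 dB and 5.27% at 105 dB, and Fkbp5 32.0%, 8.62% and 9.79% in the same groups. The relative SD was largest at 70 dB in 7 of 10 members and 16 of 35 other targets, against 34.6% of all genes, and its median over the members was 28.8% at 70 dB, 9.37% at 94 dB and 10.3% at 105 dB, where all genes had 10.6%, 11.2% and 9.89%. The other glucocorticoid targets did not share that difference, with a median of 10.8% at 70 dB, slightly under their 94 dB median, and 7.07% at 105 dB. Nr3c1 itself varied by 4.46% at 70 dB. The pattern was noticed in these libraries and has no independent check, and what the ambient replicates had in common is not stated in the labels.

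Blood and immune cell markers were also called at 94 dB against 70 dB, where 26.1% of all genes were (13.9% higher, 12.2% lower). At 105 dB against 70 dB 1.62% of all genes were called (1.11% higher, 0.508% lower). Of 8 neutrophil markers 4 rose at 94 dB and 1 at 105 dB against 70 dB, with summed levels of 7511 to 9345 CPM at 70 dB, 7743 to 15265 CPM at 94 dB and 8299 to 9868 CPM at 105 dB. Of 7 macrophage markers 4 rose and 1 fell at 94 dB and 1 fell at 105 dB against 70 dB, with sums of 391 to 453 CPM at 70 dB, 496 to 592 CPM at 94 dB and 417 to 464 CPM at 105 dB. Of 7 erythroid markers 2 rose and 1 fell at 94 dB, and 0 passed by edgeR at 105 dB against 70 dB (3 at an unadjusted p under 0.05; 1 by DESeq2), with sums between 18141 and 22249 CPM at 70 dB, between 18829 and 32427 CPM at 94 dB and between 22277 and 31414 CPM at 105 dB. Their part in the fold changes of the 10 genes was not tested.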
